A study of Mus musculus with 12 samples.

Results

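The vascular endothelial growth factor (VEGF) and angiopoietin genes described here are 10 mouse genes: the ligands Vegfa, Vegfb, Vegfc, Pgf, Angpt1 and Angpt2 and the receptors Flt1, Kdr, Tek and Tie1. They were matched by gene symbol in the deposited count table, which lists 32285 genes, and all 10 were found. The set was chosen by family name with the genotype comparison of these libraries already known, so the members' differences between genotypes are a description and carry no p-value. Of the 10 genes, 5 passed the filter on low counts and were fitted (Vegfa, Vegfb, Pgf, Angpt1 and Flt1), and the other 5 were at or near 0.

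RNA was sequenced from the nucleus pulposus of tail discs, the notochord-derived core of the intervertebral disc, in 12 mice of strain C57BL/6-129/SvEv aged 12 months. There were 6 WT and 6 Opa1cKO mice and 1 library per mouse. In Opa1cKO mice Opa1, a mitochondrial inner-membrane fusion gene, was deleted at 3 months with AcanCre, a Cre driven from the aggrecan locus and switched on by tamoxifen, and the mice lived for 9 more months. Cells that do not express aggrecan, such as those of vessel walls, are not the intended target of this Cre. Both genotypes received tamoxifen at 100 mg/kg on 3 days, so exposure to the drug is common to WT and Opa1cKO. The stated aim was to learn which transcripts differ once Opa1 is depleted.

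VEGF ligands are secreted dimers that act on receptor tyrosine kinases, mainly of endothelial cells. VEGF-A drives the growth and permeability of vessels through KDR (VEGFR2), while FLT1 (VEGFR1) binds VEGF-A, VEGF-B and placental growth factor, and its secreted form acts as a decoy. Angiopoietin-1 activates the receptor TEK (TIE2) and stabilises vessels, angiopoietin-2 is mostly its antagonist, and TIE1 is a partner of TEK. The healthy nucleus pulposus is an avascular, low-oxygen tissue whose own cells express Vegfa.

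Library totals ran from 37268242 to 56618266 counts, and no 2 libraries agreed within sampling noise. Opa1 itself averaged 102 ± 17.3 CPM (read counts scaled by library total and TMM factor) in WT and 40.6 ± 6.30 in Opa1cKO (SD, n = 6 each), with no overlap. The sex labels of 4 libraries were contradicted by their sex-linked reads: WT 4 read as male, and WT 5, WT 6 and Opa1cKO 4 read as female. Results are therefore also given without these 4 libraries, which leaves 3 WT libraries, all female, and 5 Opa1cKO libraries, 3 male and 2 female. With sex in that fit, the genotype term rests on 3 WT against 2 Opa1cKO females. A gene was called at an edgeR adjusted p below 0.05 over the 15229 genes tested. By that rule 1558 genes were called, 10.2% of those tested, and 5.13% were called lower in Opa1cKO.

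The stretches upstream of Vegfa, Vegfb and Flt1 are shown because these were the 3 members with the highest TPM, the first pair called lower and Flt1 not called. Each is the 250 bases before the start site in RefSeq (GRCm38.p6, the assembly also called mm10), written 5′ to 3′ on the gene's strand. All 3 genes lie on the minus strand, and the windows are chr17:46032378-46032627 for Vegfa, chr19:6987652-6987901 for Vegfb and chr5:147726012-147726261 for Flt1. Capitals mark the GC box GGGCGG, which binds Sp1-family factors, and the hypoxia response core, searched as ACGTG and as GCGTG, all on both strands.
Vegfa: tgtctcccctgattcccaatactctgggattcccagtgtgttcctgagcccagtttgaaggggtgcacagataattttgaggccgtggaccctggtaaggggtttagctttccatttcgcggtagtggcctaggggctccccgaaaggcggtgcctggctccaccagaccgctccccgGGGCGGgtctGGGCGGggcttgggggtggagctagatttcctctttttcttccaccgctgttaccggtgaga
Vegfb: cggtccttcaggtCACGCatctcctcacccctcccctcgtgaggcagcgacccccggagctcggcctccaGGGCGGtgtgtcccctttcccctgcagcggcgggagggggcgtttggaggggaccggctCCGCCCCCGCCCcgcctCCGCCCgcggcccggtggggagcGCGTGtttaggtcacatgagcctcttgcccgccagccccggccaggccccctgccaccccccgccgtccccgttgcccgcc
Flt1: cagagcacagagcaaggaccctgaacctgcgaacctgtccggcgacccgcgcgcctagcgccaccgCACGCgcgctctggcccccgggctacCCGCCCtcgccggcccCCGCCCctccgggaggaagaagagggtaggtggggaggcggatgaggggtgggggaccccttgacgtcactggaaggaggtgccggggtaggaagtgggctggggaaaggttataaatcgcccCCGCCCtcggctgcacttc
The Vegfa window held 2 GC boxes, the nearer one starting 62 bases before the start site, and neither core within its 250 bases. Sequence further upstream was not searched for any gene. The Vegfb window held 4 GC boxes and 2 GCGTG cores, and the Flt1 window held 3 GC boxes and 1 GCGTG core. No marked letters were shared between motifs. Over all 32851 RefSeq windows of the same length, 32.7% held a GC box, 16.6% held ACGTG, 28.2% held GCGTG and 38.6% held either core. Of the members, 8 had a window in this table. A second Vegfa window, upstream of an internal start site at chr17:46025164-46025413, held 1 ACGTG, 1 GCGTG and 1 GC box. This window lies inside the gene, so its letters can be exon or intron sequence. The Kdr window held 2 GCGTG cores and 2 GC boxes, and the windows of Tek and Tie1 held none of the 3 motifs. These letter matches are descriptions of the reference sequence and not evidence of binding in these samples.

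Compared per transcript length, in the TPM that the authors deposited, the VEGF axis of this tissue was dominated by 1 ligand. Vegfa averaged 683 ± 177 TPM in WT and 384.5 ± 73.3 in Opa1cKO. The next member was Vegfb at 41.6 ± 8.09 TPM in WT and 28.7 ± 3.55 in Opa1cKO, followed by Flt1 at 22.1 ± 7.03 and 24.4 ± 6.60 TPM (SD, n = 6 each). Vegfa stood apart from both in every library, since its lowest value was 289 TPM and the highest Vegfb value was 53.1 TPM. The WT ranges of Vegfb (32.6 to 53.1 TPM) and Flt1 (15.6 to 33.1 TPM) met at their edge. Within the same library, the TPM ratio of Vegfb to Flt1 was 1.20 to 3.01 in WT and 0.814 to 1.80 in Opa1cKO.

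Angpt1 and Pgf formed a lower tier, at 1.70 ± 0.584 and 0.708 ± 0.158 TPM in WT and 0.168 ± 0.133 and 0.151 ± 0.223 TPM in Opa1cKO, with ranges that overlapped in both genotypes. The remaining members Tek, Angpt2, Kdr, Tie1 and Vegfc averaged at most 0.113 TPM in either genotype, and each was at 0 in 3 to 11 of the 12 libraries. Within the VEGF ligands among the members (Vegfa, Vegfb, Vegfc and Pgf, without Vegfd), Vegfa made up 93.9 ± 2.11% of TPM in WT and 92.9 ± 1.28% in Opa1cKO. The lowest share was 89.6% in WT 1, the library with the highest Vegfb level.

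**Figure D1:**
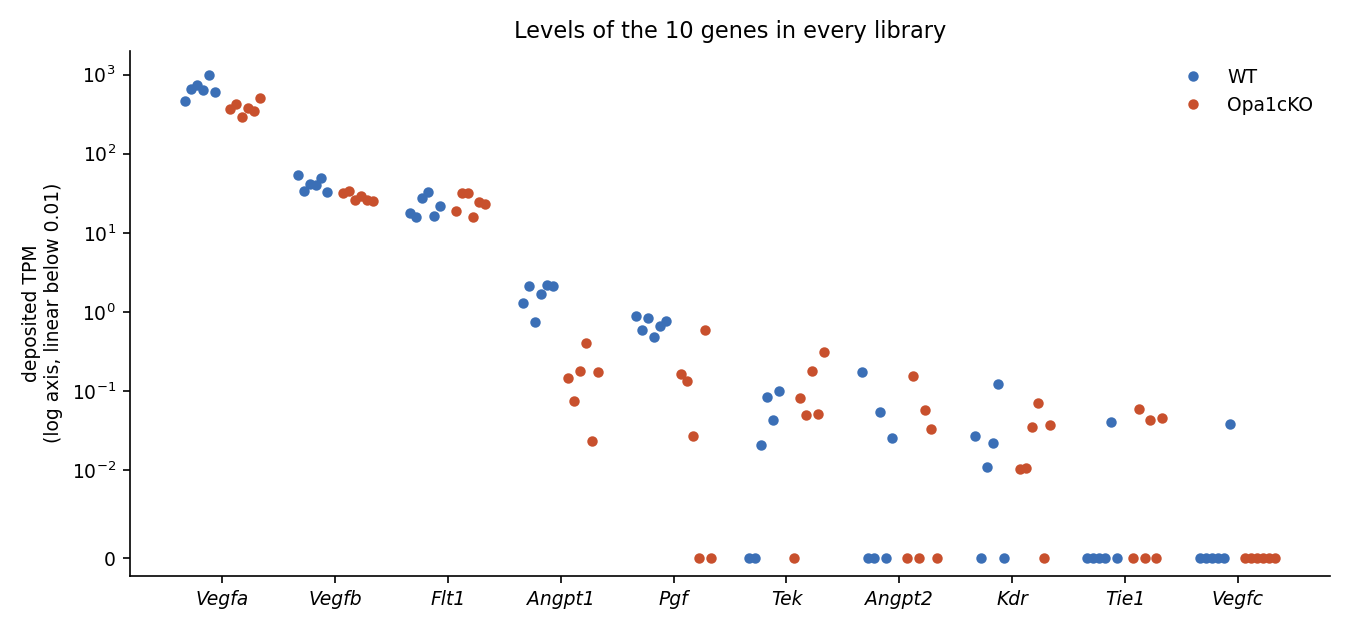
Deposited TPM of the 10 genes in each of the 12 libraries on a logarithmic axis that turns linear below 0.01, 1 point per library, WT in blue and Opa1cKO in orange. Vegfa lies between 289 and 993 TPM, Vegfb and Flt1 lie near each other, and Tek, Angpt2, Kdr, Tie1 and Vegfc lie at or near 0.

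Vegfa, Vegfb and Angpt1 were lower in Opa1cKO, with no overlap between genotypes, and were the 3 members called, of 5 tested. Pgf was lower in 5 of 6 Opa1cKO libraries than in any WT library but was not called, and Flt1, the only member receptor with appreciable reads, was at similar levels. CPM ranges of the 2 genotypes were apart for 6.41% of all tested genes. Because the set was chosen with this comparison known, a member's call, kept or lost, is a description too. Nothing is read from the members' count against that share or against the 10.2% called. In a bulk sample, fewer cells of a type and less RNA per cell cannot be told apart.

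Vegfa (ENSMUSG00000023951, chromosome 17, 46016993 to 46032369, minus strand of GRCm38), the main VEGF ligand, had 469.8, 615, 699.5, 570.1, 915 and 571 CPM in WT 1 to 6. In Opa1cKO 1 to 6 it had 339, 379, 279, 355, 333 and 449.6 CPM. WT 5 was the highest library and Opa1cKO 6 the highest of its genotype, just below WT 1, the lowest WT library. The means were 640.01 ± 154 and 356 ± 56.7 CPM (SD, n = 6 each), a log2 fold change of -0.86 (SE 0.158), or 1.82-fold lower in Opa1cKO. Each value rests on at least 12371 reads, so counting error is small against the spread between mice. Vegfa kept its call with any 1 library left out, at log2 fold changes of -1.02 to -0.66, the smallest being without WT 5. Without the 4 libraries of contradicted sex it was -0.61 and not called. The gene has 13 annotated transcripts, 8 of them coding, and a gene count does not separate the isoforms that differ in heparin binding.

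Vegfb (ENSMUSG00000024962, chromosome 19, 6982473 to 6987651, minus strand), a ligand of FLT1 known for roles in lipid uptake and survival rather than vessel growth, had 20.04, 12.1, 14.6, 13.1, 16.9 and 11.6 CPM in WT 1 to 6. In Opa1cKO 1 to 6 it had 11.1, 11.5, 9.50, 10.3, 9.33 and 8.29 CPM. The ranges were apart by a narrow margin, between WT 6 and Opa1cKO 2. The log2 fold change was -0.60 (SE 0.153), 1.51-fold lower in Opa1cKO. Vegfb lost its call without WT 5 (-0.54) and without Opa1cKO 6 (-0.52), and also without the 4 libraries of contradicted sex, where its difference was larger (-0.82).

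The level of Vegfa relative to Vegfb, as a ratio of TPM, was 16.8 ± 4.15 in WT and 13.6 ± 3.42 in Opa1cKO, and the ranges overlapped. Vegfa made up less of the pair in WT 1, with a ratio of 8.78, than in any other library. Over libraries Vegfa varied more in WT (coefficient of variation 24.1%) than in Opa1cKO (15.9%), and Vegfb did likewise (22% and 11.8%). The difference in spread was not tested.

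Pgf (ENSMUSG00000004791, chromosome 12, 85166635 to 85177790, minus strand) encodes placental growth factor, which binds FLT1 but not KDR. It had 32, 17, 25, 14, 19 and 24 reads in WT 1 to 6 and 5, 4, 1, 0, 14 and 0 reads in Opa1cKO 1 to 6. Opa1cKO 5 lay within the WT range, and the other 5 Opa1cKO libraries lay below it. Means were 0.455 ± 0.117 and 0.0962 ± 0.144 CPM (SD, n = 6 each), with a log2 fold change of -2.17 (SE 0.685) that was not called. Without Opa1cKO 5 it was -3.55 and called, and without the 4 libraries of contradicted sex it was -1.45 and not called. A library at 0 reads allows up to 3 reads, or about 0.0702 to 0.0706 CPM in the 2 libraries concerned, below every WT value.

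Vegfc, the lymphatic growth factor (chromosome 8, 54077606 to 54187096, plus strand), had 1 read in WT 6 and none in the other 11 libraries. It was not detectable at this depth, and no fold change is given.

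Angpt1 (ENSMUSG00000022309, chromosome 15, 42424723 to 42676977, minus strand), the activating ligand of TEK, showed the largest fold difference of the tested members. WT 1 to 6 had 1.59, 2.41, 0.846, 1.80, 2.47 and 2.49 CPM, from 84, 109, 39, 87, 114 and 119 reads. Opa1cKO 1 to 6 had 0.163, 0.0811, 0.211, 0.471, 0.0269 and 0.187 CPM, from 8, 4, 12, 20, 1 and 8 reads. WT 3 was the lowest WT library and Opa1cKO 4 the highest Opa1cKO library, and the 2 genotypes did not overlap. The log2 fold change was -3.61 (SE 0.460), 12.2-fold lower in Opa1cKO, from 1.93 ± 0.654 to 0.190 ± 0.154 CPM (SD, n = 6 each).

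The call for Angpt1 held in all 28 alternatives run, with log2 fold changes from -3.95 to -1.27. The smallest size came from TPM with a pseudocount of 1, which understates the change of a gene at this level. Without the 4 libraries of contradicted sex it was -3.85 and called. An antisense gene, Gm17473, overlaps 14.2% of the exonic bases of Angpt1. Gm17473 had 9 reads in all WT libraries together and 3 in Opa1cKO, against 552 and 53 for Angpt1. Angpt2, the context-dependent antagonist of angiopoietin-1 (chromosome 8, 18690263 to 18741562, minus strand, inside the gene Mcph1 on the other strand with no shared exonic bases), had 11 reads in all WT libraries and 9 in Opa1cKO. Of its WT reads, 8 came from WT 1, and 6 of the 12 libraries had none.

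**Figure D2:**
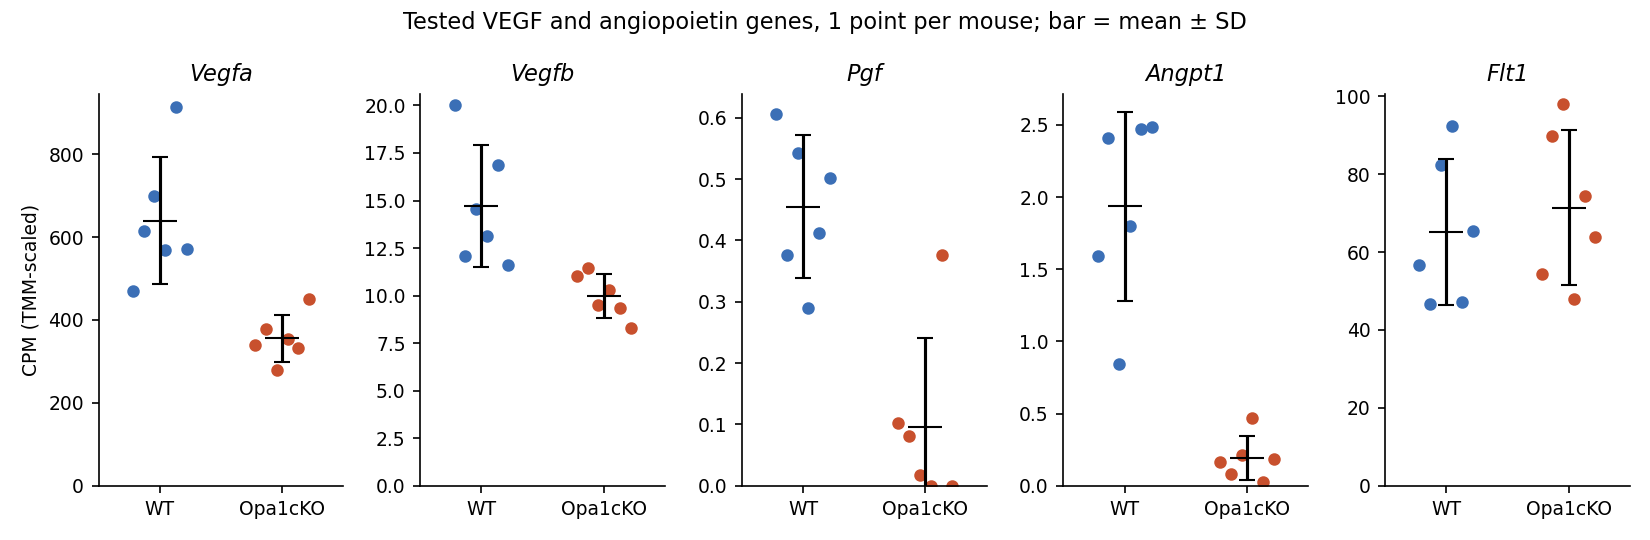
CPM of the 5 tested members in each library, 1 point per mouse, with mean and SD in black and every axis starting at 0 (the lower SD arm of Pgf in Opa1cKO passes below 0 and is not drawn in full). The 2 genotypes do not overlap for Vegfa, Vegfb and Angpt1, 1 Opa1cKO library reaches the WT range for Pgf, and the ranges lie over each other for Flt1.

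Flt1 (ENSMUSG00000029648, chromosome 5, 147561604 to 147726011, minus strand), the high-affinity VEGF-A receptor, was the only member receptor with substantial reads. Its level in WT 1 to 6 was 56.7, 46.6, 82.3, 92.4, 47.2 and 65.4 CPM, while Opa1cKO 1 to 6 stood at 54.4, 89.8, 98.1, 47.9, 74.5 and 63.9 CPM. The ranges lay almost on top of each other, with high and low libraries in both genotypes. The means were 65.1 ± 18.8 and 71.4 ± 19.8 CPM (SD, n = 6 each), and the log2 fold change was 0.18 (SE 0.233) and not called. Flt1 was called in none of the 28 alternatives, whose values ran from -0.02 to 0.37, and it was 0.16 without the 4 libraries of contradicted sex. Of 6 annotated Flt1 transcripts 2 are coding, and the count does not separate the membrane receptor from the secreted decoy.

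Kdr, the main signalling receptor for VEGF-A (chromosome 5, 75932827 to 75978458, minus strand), had 3, 0, 1, 2, 11 and 0 reads in WT 1 to 6 and 1, 1, 4, 6, 0 and 3 reads in Opa1cKO 1 to 6. WT 5 held most of the WT reads, and 3 libraries had none. In the 9 libraries with any Kdr read, Flt1 had 198 to 4429 times as many reads as Kdr. Reads of the 2 genes are not corrected for length in that ratio. In mean TPM Flt1 was at 22.1 in WT and Kdr at 0.0305.

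Tek, the angiopoietin receptor (chromosome 4, 94739289 to 94874976, plus strand), had 0, 0, 1, 4, 2 and 5 reads in WT 1 to 6 and 0, 4, 3, 8, 2 and 13 in Opa1cKO 1 to 6. Opa1cKO 6 had the most. Tie1, its partner (chromosome 4, 118471191 to 118490061, minus strand), had 2 reads in all WT libraries and 7 in all Opa1cKO libraries. Neither gene passed the filter on low counts, and a library at 0 reads allows up to 3.

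Set per length against the receptor, Vegfa stood at 33.8 ± 15.2 times the TPM of Flt1 in WT and at 16.9 ± 5.68 times in Opa1cKO, with ranges of 19.5 to 61.1 and 8.95 to 23.4 (SD, n = 6 each). The ratio was highest in WT 5, where Vegfa was high and Flt1 low, and lowest in Opa1cKO 3, where the reverse held. Vegfb exceeded Flt1 in TPM in 11 of 12 libraries, the exception being Opa1cKO 3 with a ratio of 0.814.

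Sex as read from sex-linked genes was set against the members, with genotype in the fit, because the sexes were unevenly split by reads (5 female and 1 male WT, 3 female and 3 male Opa1cKO). That fit, added after the data were seen, called 0 of 5 tested members, 1 having an unadjusted p below 0.05, and 0.0394% of all genes tested. Xist and the Y-linked genes that set sex by reads were not removed from the fit, so that share can include them. The member with the smallest p was Flt1, with a log2 ratio of female over male of -0.47 (SE 0.197, edgeR adjusted p = 0.711). With sex by reads in place of labelled sex as covariate, Vegfa, Vegfb and Angpt1 kept their calls at log2 fold changes of -0.78, -0.58 and -3.22, and Flt1 was at -0.02. Among libraries read as female alone, 5 WT against 3 Opa1cKO, also set after the data were seen, Vegfa was -0.79 and called, Angpt1 was -3.06 and called, and Vegfb was -0.69 and not called. The libraries read as male held 1 WT library, too few for a value.

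**Figure D3:**
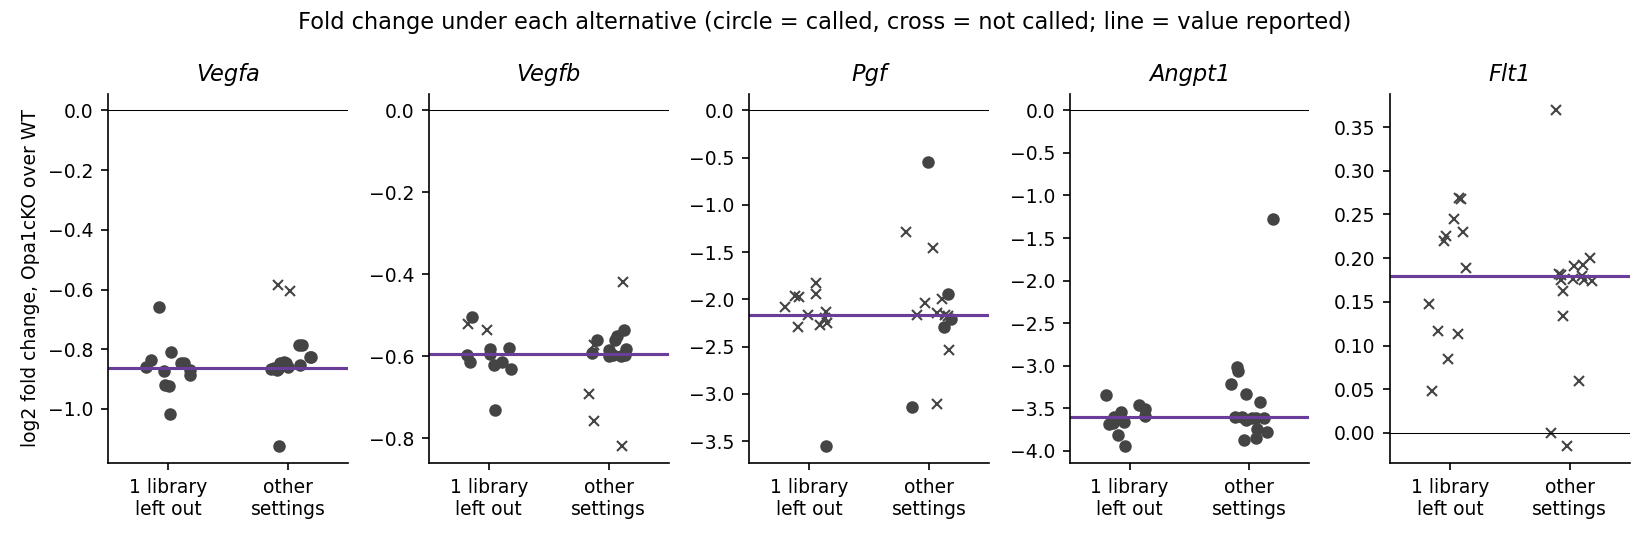
Log2 fold change (Opa1cKO over WT) of the 5 tested members under each alternative setting, split into fits with 1 library left out and other settings, circles for called and crosses for not called, with the reported value as a purple line and each panel on its own axis. Vegfa, Vegfb, Pgf and Angpt1 stay below 0 throughout, and Flt1 lies between -0.02 and 0.37 and is never called.

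The genes with profiles most like Vegfa over the 12 libraries were Gys1, Pfkp, Nexn, Izumo4 and Ero1l. Likeness was the root mean square difference of log2 CPM after each gene was centred on its own mean, and was 0.205 for Gys1, 0.217 for Pfkp, 0.223 for Nexn, 0.238 for Izumo4 and 0.249 for Ero1l. Gys1 encodes muscle-type glycogen synthase with 146 ± 9.39 CPM in WT against 83.7 ± 7.95 in Opa1cKO, at -0.79 on the log2 scale (SE 0.0829). Pfkp, a phosphofructokinase of glycolysis, was at -0.54, and Ero1l, an oxidase of the endoplasmic reticulum that forms disulphide bonds, was at -0.64. Nexn, an actin-binding protein, was at -0.54 and Izumo4 at -0.48. All 5 were lower in Opa1cKO, as their choice by likeness to Vegfa makes likely, and the points share their libraries, so no test is given.

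**Figure D4:**
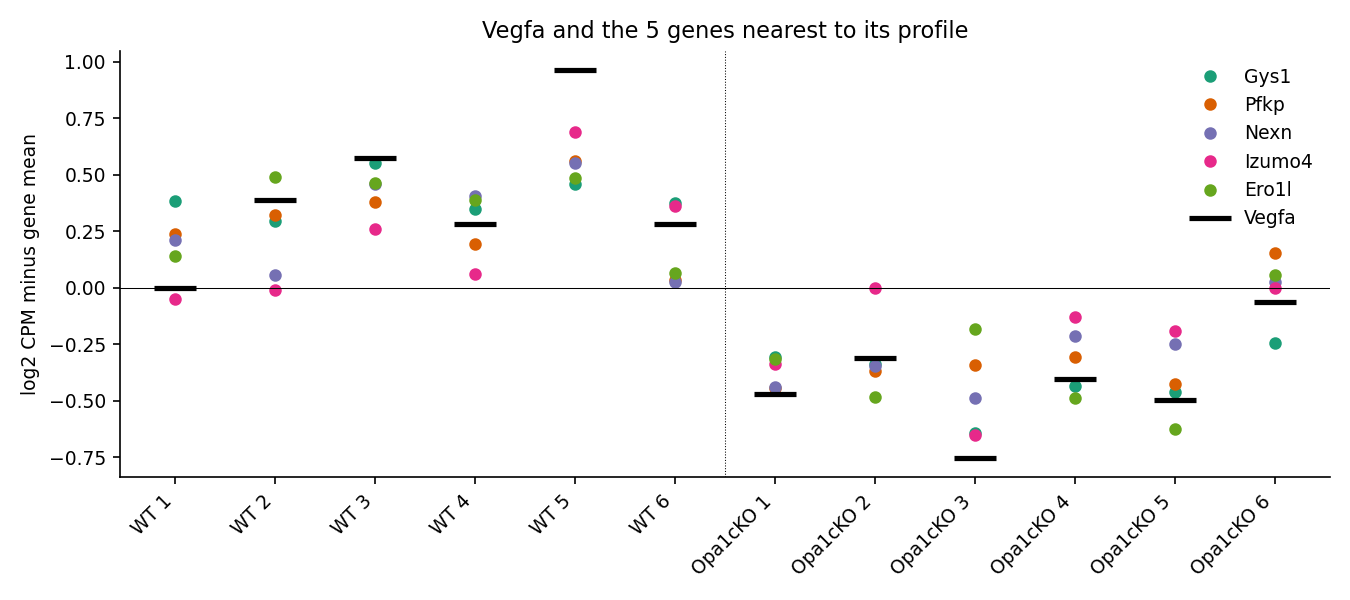
Log2 CPM of Vegfa (black bars) and of its 5 nearest genes (coloured points) in each of the 12 libraries, each gene centred on its own mean. WT libraries lie mostly above 0 and Opa1cKO libraries mostly below, and Vegfa reaches further up than the other 5 genes in WT 5.

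Around the members, 5 lists of pathway genes held 90 genes, of which 77 were tested. Of these 10 rose and 4 fell in Opa1cKO, or 18.2%, beside 10.2% of all tested genes. The lists were chosen with earlier results of these data known. Nothing is therefore read from 18.2% against 10.2%, and the fold changes and adjusted p-values of list genes are a description. Without the 4 libraries of contradicted sex 1 of the pathway genes, Angptl4, was called higher (2.29) and none lower. With any 1 library left out, 6 to 10 rose and 2 to 7 fell, the fewest (6 and 2) without WT 1, WT 6 or Opa1cKO 6.

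Of 8 further ligands, receptors and partners, 5 were tested, 1 rose and 1 fell, with a median log2 fold change of -0.07 beside 0.01 over all tested genes. Vegfd, a ligand of the lymphatic receptor FLT4, fell from 2.81 ± 0.405 to 1.55 ± 0.250 CPM with no overlap (SD, n = 6 each, edgeR adjusted p = 0.0084 at a log2 fold change of -0.90 with SE 0.186) and kept its call with any 1 library left out. Mcam, a KDR co-receptor also known as CD146, rose by 0.60 (edgeR adjusted p = 0.0355). Mcam lost the call without any 1 of WT 1, WT 3, WT 5, WT 6 or Opa1cKO 2. Its call was also lost with sex by reads as covariate (0.39) and with no sex covariate (0.46). The co-receptor Nrp2 stood at 429 ± 72.5 and 390.1 ± 86.5 CPM and was not called. Nrp1, the co-receptor of KDR, was at 0.200 ± 0.0952 and 0.746 ± 1.08 CPM (log2 fold change 1.97, not called). Opa1cKO 6 held 2.93 CPM of Nrp1, the other 5 Opa1cKO libraries averaged 0.311 CPM, and the log2 fold change without it was 0.30. Without Opa1cKO 5 it was 2.27 and called.

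Among 33 genes of receptor signalling, 30 were tested and 1 rose, with a median of 0.01. Ptk2, focal adhesion kinase, rose from a mean of 167 CPM (highest library 177) to 201 CPM (lowest library 179) (edgeR adjusted p = 0.0125 at a log2 fold change of 0.32), and its call was lost without WT 6. The Src-family kinase Fyn followed at 0.29 (edgeR adjusted p = 0.0627, not called).

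Of 16 angiogenesis inhibitors, 12 were tested, 1 rose and 1 fell, with a median of 0.12. Col18a1, the collagen from which endostatin is cleaved, rose from 22.8 ± 7.33 to 76.4 ± 27.3 CPM with no overlap (edgeR adjusted p = 0.00409 at a log2 fold change of 1.69 with SE 0.291). Ism1, encoding the secreted inhibitor isthmin, fell from 6.50 ± 2.13 to 2.18 ± 0.609 CPM with no overlap (edgeR adjusted p = 0.000955 at a log2 fold change of -1.69). Both kept their calls with any 1 library left out. The most abundant gene of the list was Timp3, which blocks VEGF-A binding to KDR, at 3646 ± 552 and 2614 ± 659 CPM (-0.42, not called).

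Among 18 other angiogenic factors and receptors, 15 were tested, 4 rose and 1 fell, with a median of 0.25. Angptl4, an inhibitor of lipoprotein lipase that shares the angiopoietin fold but does not bind TEK, rose from 0.810 ± 0.223 to 3.66 ± 2.03 CPM (edgeR adjusted p = 0.000249 at a log2 fold change of 2.39 with SE 0.295), with no overlap. Pdgfb, the growth factor that recruits pericytes, rose by 1.99 (edgeR adjusted p = 0.00873), and both kept their calls with any 1 library left out. Notch4 (0.96), Angptl2 (0.93) and the hepatocyte growth factor receptor gene Met (-0.35) were called at edgeR adjusted p of 0.0405, 0.0417 and 0.0453, and each held in only 2 or 3 of 12 fits with 1 library left out. Angptl2 was 0.44 without Opa1cKO 6. With sex by reads as covariate, Notch4 and Angptl2 (0.84 each) were not called and Met (-0.38) was.

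All 15 regulators of Vegfa transcription or mRNA were tested, 3 rose and 1 fell, with a median of 0.12. The mRNA of Hif1a, which encodes an oxygen-regulated transcription factor of Vegfa, rose by 0.58 (edgeR adjusted p = 0.0013). Its protein was not measured. An antisense gene, Gm15283, shares 5.6% of the exonic bases of Hif1a and had 11099 reads in all WT libraries and 1746 in Opa1cKO, against 83738 and 119910 for Hif1a, and whether reads were counted by strand is not known here. Ppargc1b, a coactivator of mitochondrial genes, rose from 1.005 ± 0.307 to 2.92 ± 1.06 CPM (edgeR adjusted p = 0.00714 at a log2 fold change of 1.48), and was not called without Opa1cKO 6 (1.07). Vhl, which marks HIF proteins for degradation, fell by 0.39 (edgeR adjusted p = 0.0348, called in 4 of 12 fits with 1 library left out). Zfp36, which destabilises AU-rich mRNAs, rose by 1.55 (edgeR adjusted p = 0.0494, called in 2 of 12).

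**Figure D5:**
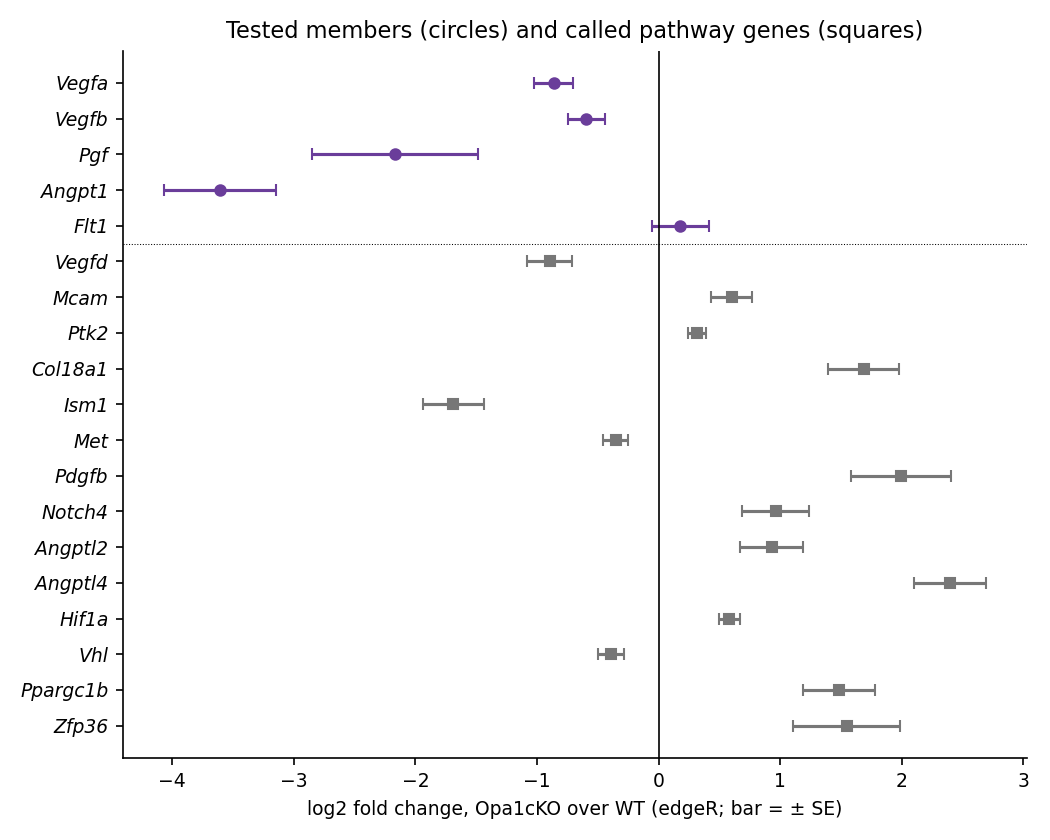
Log2 fold change (Opa1cKO over WT, edgeR, ± SE) of the 5 tested members above the dotted line and of the 14 called pathway genes below it. Angpt1 lies furthest to the left at -3.61 and Angptl4 furthest to the right at 2.39.

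Markers of other cell types, also listed with earlier results of these data known, were set beside these values. The nucleus pulposus markers Cd24a, T and Krt19 were high in both genotypes, at 3604, 2719 and 2097 CPM in WT, and none of the list was called. Of 16 endothelial markers 6 were tested and none was called; the most abundant were Esam (6.59 and 8.32 CPM in WT and Opa1cKO), Eng (5.64 and 5.65) and Egfl7 (3.98 and 5.29). Pecam1, which marks endothelium, was at 1.66 and 1.79 CPM, Vwf was at 0.852 and 1.43 CPM (log2 fold change 0.59, not called) and Ecscr at 0.572 and 0.562 CPM. Among the 10 markers below the filter, Plvap had 22 reads in WT and 91 in Opa1cKO, Erg 36 and 115, Cdh5 55 and 35, and Emcn 12 and 3. No marker was at 0 in every library, and 6 of the 16 averaged under 0.1 CPM. Their summed CPM was 14.6 to 23.8 in WT (mean 19.99 ± 3.26) and 18.9 to 29.3 in Opa1cKO (mean 24.3 ± 3.84), a difference of 4.34 CPM with a two-sided exact permutation p of 0.0628 (n = 6 each, smallest possible p 0.00216). As TPM the sum differed by 5.98 (exact permutation p = 0.0325), and without the 4 libraries of contradicted sex by 3.34 CPM (exact permutation p = 0.304, 3 against 5). None of these permutation tests held a term for sex, which was unevenly split between the genotypes.

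Blood genes were near 0, and none passed the filter. Their sum ran from 0.0434 to 2.41 CPM in WT (median 0.213) and from 0.101 to 1.67 in Opa1cKO (median 0.232). Alas2 had 104 and 97 reads in WT and Opa1cKO, Hbb-bs 43 and 38, Hbb-bt 4 and 1, and Hba-a1 none. WT 2 and Opa1cKO 5 held the most, and the means of 0.555 and 0.549 CPM became 0.184 and 0.325 without them. Of 8 pericyte and smooth muscle markers 4 were tested and 1 rose, with a median of -0.26. Cspg4, which cartilage-like cells also express, rose by 1.13 (edgeR adjusted p = 0.0426) but was 0.50 and not called without Opa1cKO 6. Smooth muscle myosin Myh11 was at 62.9 ± 25.9 and 35.3 ± 9.86 CPM (log2 fold change -0.82, not called), Cnn1 at 0.632 and 0.375 CPM (-0.57, not called) and Pdgfrb at 13.9 and 14.4 CPM (0.05, not called). Of 8 macrophage markers 4 were tested. Csf1r (-0.88, edgeR adjusted p = 0.00468) and Cd163 (-3.98, edgeR adjusted p = 4.45e-05) fell, Cd68 rose (1.28, edgeR adjusted p = 0.000152) and Mrc1 was not called. Adgre1, C1qa, C1qb and C1qc each averaged under 0.1 CPM. Without the 4 libraries of contradicted sex Cd163 (-4.48) and Cd68 (1.15) kept their calls and Csf1r (-0.70) lost its call, as it did in labelled females alone (-0.63) and in libraries read as female alone (-0.80). Summed macrophage markers ran from 105 to 197 CPM in WT, highest in WT 5, and from 97.1 to 117 in Opa1cKO. The lymphatic list was nearly all Reln (288 and 224 CPM), with Lyve1 at 0.229 and 0.169 CPM and Flt4 at 0.0378 and 0.0531 CPM. Reln, the 1 gene of the list tested, was at a log2 fold change of -0.37 and not called. It was called lower with no sex covariate, with sex by reads as covariate, and without either WT 1 or Opa1cKO 3. Of the annulus and tendon markers, Col1a1 was at 236 and 339.5 CPM, Mkx at 19.9 and 21.1 CPM and Col1a2 at 14.4 and 12.8 CPM, and no gene of the list was called. Skeletal muscle markers, led by Acta1 (2.21 and 1.85 CPM), Myh1 (0.901 and 1.72) and Tnnt3 (0.472 and 0.571), had none called. Their sum ran from 0.694 to 13.8 CPM in WT, with WT 5 the highest, and from 1.32 to 14.7 in Opa1cKO, with Opa1cKO 4 the highest. Its means of 4.35 ± 4.82 and 5.26 ± 4.93 CPM became 2.47 and 3.38 without those libraries. WT 5 was also the highest library for Vegfa. The part of these cell types in the differences of Vegfa, Vegfb and Angpt1 was not tested.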

How the data were processed

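Per the labels' protocols, a stranded, ribosome-depleting kit turned 50 ng of RNA into libraries over 14 PCR cycles. Per the submitters' processing notes, STAR 2.7.11b and the mm10 build were used. The program that counted reads, the annotation and the strand option were not given in the sources used here, where only aligner and build are named. The authors deposited a table of whole-number read counts for 32285 genes and a table of TPM, a length-scaled share, for 32128 symbols. Positions are from GENCODE M21 of the same assembly. PCR copies are not separable from independent molecules, so counts and the 3 reads allowed by a 0 cover counting error only.

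The count test was edgeR 4.0.16 under R 4.3.3. Genes were kept by filterByExpr (minimum count 10), scaled by TMM and fitted by robust quasi-likelihood with genotype and labelled sex as terms, and p-values were adjusted by Benjamini-Hochberg over 15229 genes. CPM uses TMM factors, and profile likeness used log2 CPM with a prior count of 1. The edgeR, DESeq2 and limma-voom fits were tested on simulated counts, and the other steps were not. Alternatives were DESeq2 1.42.0, limma-voom (limma 3.58.1), TPM on a log2 scale with pseudocounts of 1 and 0.1, other scalings, filters and sex terms, a replicate block and each library left out. Values of list genes and of marker sums without libraries were added after the data were seen. All columns matched a sample.

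The members and lists were chosen with earlier results of these data known. The rule named all 10 members, up to 4 called genes of each pathway list by p, the 3 most abundant genes of each marker list and the 5 genes nearest to Vegfa with a mean of 1 CPM or more. Met, Nrp1, Nrp2, Fyn, Timp3, Pecam1, Vwf, Ecscr, Plvap, Erg, Cdh5, Emcn, Cnn1, Hba-a1, Mrc1, Adgre1, C1qa, C1qb and C1qc were named after their values were seen. Of the list genes, Flt4 and Tnmd stand in 2 lists each, and Ccl21a was not analysed here.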

Additional observations from a re-analysis of the deposited data

Results flagged for a closer look

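Of 21 sets of 6 libraries checked (each member and the endothelial marker sum, per genotype, without Vegfc in Opa1cKO, which is at 0), 5 held 1 library far from the other 5. Chance gives such a flag in about 1 of 20 groups of continuous values, a rate that does not hold for genes of a few reads. For Vegfc and Tie1 in WT, where 1 library holds every read, the flag follows from the count alone. Pgf in Opa1cKO 5 was at 0.377 CPM from 14 reads, where the next highest Opa1cKO library was at 0.102 CPM. Kdr in WT 5 was at 0.239 CPM from 11 reads. Tie1 in the same library was at 0.0434 CPM from 2 reads. Angpt2 in WT 1 was at 0.152 CPM from 8 reads. Vegfc in WT 6 was at 0.0209 CPM from a single read.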

How the results depend on the processing

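Over all genes, 1558 calls became 325 without the 4 libraries of contradicted sex, 300 in labelled females alone, 419 in labelled males alone, 554 at an adjusted p below 0.01, and 819 to 1995 with 1 library left out (lowest without Opa1cKO 6, and 973 without WT 6). The smaller sets hold fewer samples. With a replicate block the count was 769, and of the members Vegfb alone lost its call there (-0.57). The replicate numbers do not pair the mice, since same-numbered libraries deviated with correlations of -0.217 to 0.043. In no same-numbered pair was each library the best match of the other. Of 28 alternatives run, Vegfa was called in 26, Vegfb in 21, Angpt1 in 28 and Flt1 in 0. Pgf was called in 6 of 27. The members were chosen with this comparison known, so these counts describe how a call moves with the settings and lend it no support. Vegfa was not called in labelled females alone (-0.58). Vegfb was called neither in labelled females alone (-0.76) nor in labelled males alone (-0.42). By their reads these sets are not of a single sex. Labelled males alone set WT 5 and WT 6, which read as female, against Opa1cKO libraries that mostly read as male. Sex and genotype can therefore hardly be told apart there, and labelled females alone include WT 4, which read as male. The difference in summed endothelial markers of 4.34 CPM was 5.98 as TPM and 0.111 as mean log2(CPM + 1), both with an exact permutation p below the threshold, and 3.27 to 5.43 CPM with 1 library left out, passing without WT 3 (5.11) and without Opa1cKO 6 (5.43). At the depth used, Vegfc, Kdr, Tek, Tie1 and Angpt2 could not be compared.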
